A study of Mus musculus with 2 samples.

Results

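The CXC and XC chemokines measured in the B16 tumor infiltrate were Cxcl1, Cxcl2, Cxcl3, Cxcl9, Cxcl10, Cxcl16 and Xcl1, 7 of the 27998 genes counted. They were taken by gene symbol, and all 7 had at least 50 unique molecular identifiers (UMIs, tags that count single captured RNA molecules) over both libraries. Single live cells carrying mouse CD45, the surface mark of leukocytes, were sorted from subcutaneous B16 melanomas of C57BL/6J mice and sequenced by scRNAseq. The mice of both groups were 6 to 8 weeks old, lacked mouse LAIR1 (LAIR1-/-) and carried a human LAIR1 transgene switched on in hematopoietic cells by Vav-cre. LAIR1 is a collagen-binding inhibitory receptor. The first group received h219-LLG, a humanized antagonist antibody to LAIR1 (labelled anti-LAIR1) whose Fc part was mutated to remove effector function, and the other an isotype control antibody (labelled Iso-ctrl). Each group was 1 library, the number of mice behind each is unknown here, and no result below has a replicate check or a p-value.

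Chemokines are small secreted proteins that steer leukocytes along gradients through G protein-coupled receptors. Cxcl1, Cxcl2 and Cxcl3 carry the ELR motif, bind Cxcr2 and draw neutrophils, and myeloid cells make them after NF-kappaB signals. Cxcl9 and Cxcl10 are induced by interferons, bind Cxcr3 and draw activated T and NK cells. Cxcl16 is made as a transmembrane protein that Adam10 can shed, and it binds Cxcr6. Xcl1, the lymphotactin of NK and CD8 T cells, binds Xcr1, the receptor of cross-presenting dendritic cells (cDC1).

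On the mm10 build, Cxcl3 (chr5:90786103-90789600), Cxcl1 (chr5:90891241-90893115) and Cxcl2 (chr5:90903871-90905938) lay in a row on the plus strand, and only 10755 bases separated Cxcl1 from Cxcl2. Cxcl9 (chr5:92321347-92328079) and Cxcl10 (chr5:92346638-92348889) lay 18558 bases apart on the minus strand of the same chromosome. Cxcl16 (chr11:70453983-70459984) and Xcl1 (chr1:164931644-164935527) stood alone, both on the minus strand. RefSeq promoter windows (GRCm38.p6, 250 bases before to 50 after the start) matched 6 of the 7 genes, with no entry for Cxcl16. The longest word shared in the same orientation by the 250 bases before the starts of Cxcl1, Cxcl2 and Cxcl3 was GGGAATTTCCC, which has the form of an NF-kappaB site, began at positions -71, -97 and -73, and was present on either strand in 11 of 27025 gene windows (0.0407%). The 120 bases before each start are shown because these genes, which were read from shared cells below, share this word, set in capitals. They run 5′ to 3′ on the plus strand and span chr5:90891125-90891244, chr5:90903779-90903898 and chr5:90785981-90786100.
Cxcl1: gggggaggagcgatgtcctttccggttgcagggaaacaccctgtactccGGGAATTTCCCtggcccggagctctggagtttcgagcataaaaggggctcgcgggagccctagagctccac
Cxcl2: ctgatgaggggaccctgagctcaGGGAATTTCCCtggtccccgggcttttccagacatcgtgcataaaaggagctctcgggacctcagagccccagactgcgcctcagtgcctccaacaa
Cxcl3: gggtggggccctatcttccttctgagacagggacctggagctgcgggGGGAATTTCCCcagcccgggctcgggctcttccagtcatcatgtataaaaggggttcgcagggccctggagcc

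The 250 bases before the Cxcl10 start (minus strand, chr5:92348890-92349139) are shown because Cxcl10 was the member read from both lymphoid and myeloid cells. The capitals mark 1 match to the interferon-stimulated response element GAAANNGAAA at position -213 and 1 match to the AP-1 word TGANTCA at -74.
Cxcl10: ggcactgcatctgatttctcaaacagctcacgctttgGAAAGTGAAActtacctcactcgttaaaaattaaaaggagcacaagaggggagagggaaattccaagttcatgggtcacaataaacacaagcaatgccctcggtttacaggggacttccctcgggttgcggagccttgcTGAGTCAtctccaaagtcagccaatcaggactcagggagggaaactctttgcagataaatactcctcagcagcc
On either strand, GAAANNGAAA was in 3.49% and TGANTCA in 7.93% of all 27025 windows, and TGANTCA reads the same on both strands. Of the other 5 members with a window, none held GAAANNGAAA, and Cxcl9 alone held TGANTCA, at position 31 after the start. A match describes the letters and is not a measured binding site.

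The h219-LLG library held 8807 barcodes and 48834592 UMIs, and the control library 6133 barcodes and 40339654 UMIs. Barcodes with at least 500 UMIs, at least 200 genes and under 10% mitochondrial UMIs were kept, which left 7433 (84.4%) and 5607 (91.4%) cells with median depths of 5050 and 5796 UMIs. Mitochondrial UMIs reached 10% in 15.2% of the h219-LLG and 8.17% of the control barcodes, and 13 barcodes occurred in both libraries. Cells were placed in classes by raw UMIs of marker genes, such as Cd3d, Cd3e and Cd3g for T cells or C1qa, C1qb and C1qc for a macrophage-like class, and class names stand for these gates only. Cells with markers of several lineages made up 531 (7.14%) and 288 (5.14%) of kept cells, were deep (median 12867 and 16003 UMIs), and are described as a population of their own, since they cannot be told apart from 2 cells caught under 1 barcode. Levels are CPM, a gene's UMIs divided by the class total and scaled to 1000000, and ratios are h219-LLG over control. All 95% intervals (exact Poisson, binomial for shares) cover counting error only, and they are too narrow for genes whose UMIs sit in few cells.

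The 7 genes fell on different cells. In the plot of UMI shares, mononuclear phagocyte-like cells (macrophages and monocytes) held 52.4% of Cxcl2 UMIs in the h219-LLG library and 25.4% in the control library. NK-like cells held 62.9% and 68.8% of Xcl1 UMIs. Cxcl16 was shared between phagocytes (28.5% and 31.3%) and dendritic cells (28.2% and 20.7%). Cxcl10 was held by phagocytes in the h219-LLG library (46.9%) and by T cells in the control library (50.4%). The cells with markers of several lineages held from 7.17% of a member's UMIs (Xcl1, control) to 83.7% (Cxcl1, control), so the sum over all kept cells and the gated classes can differ.

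**Figure D1:**
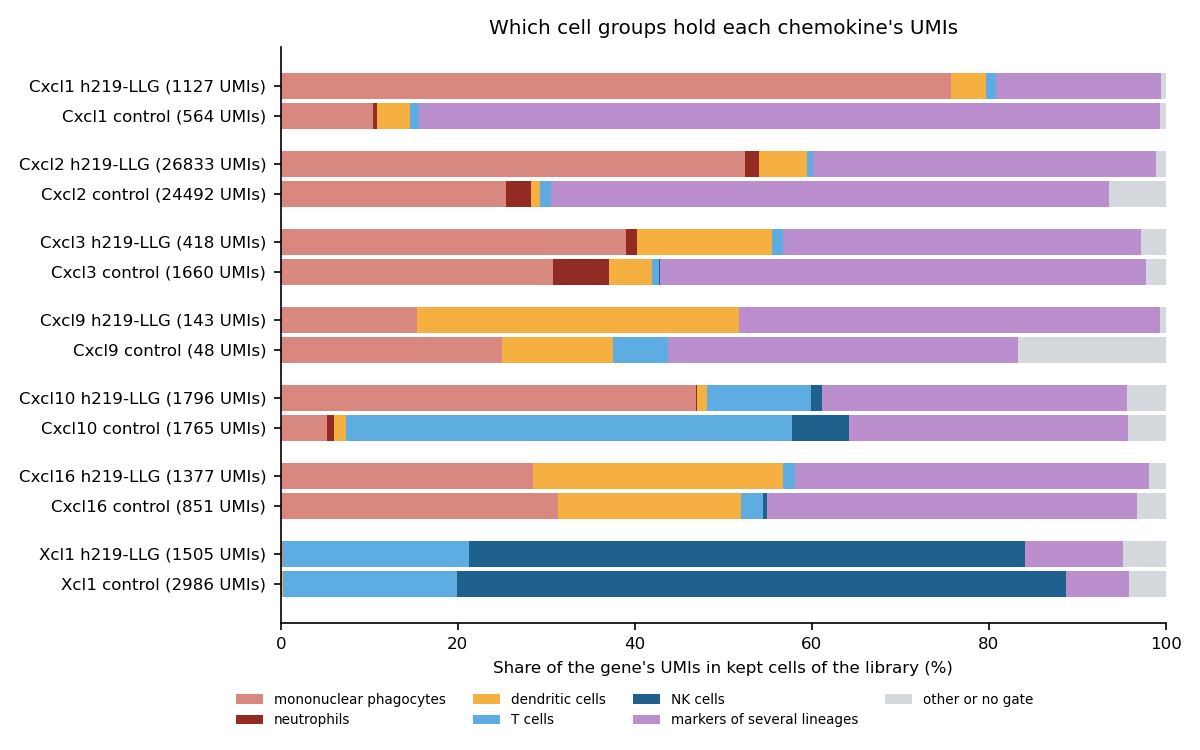
Share of each gene's UMIs (%, x axis) held by cell groups in each library, with the gene's UMI total in brackets. Phagocytes held 46.9% of Cxcl10 UMIs with h219-LLG and 5.27% in control, while T cells held 11.7% and 50.4%.

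Over all kept cells, 2 members were more than 2-fold lower with h219-LLG and 1 more than 2-fold higher, where 1.93% and 2.33% of 12437 genes passed these limits. Cxcl3 had 418 UMIs with h219-LLG and 1660 in control, a ratio of 0.211 (95% interval 0.189 to 0.235). Xcl1 had 1505 and 2986 UMIs, a ratio of 0.422 (0.397 to 0.449). Cxcl9 had 143 and 48 UMIs, a ratio of 2.50 (1.79 to 3.54), but 59 and 52 of the 143 were in single cells, and 14 cells of each library (0.188% and 0.250%) had a UMI. Without the 2 cells with the most Cxcl9 UMIs in each library the ratio was 0.993 (32 and 27 UMIs), an alternative chosen after seeing the data. The remaining members were within 2-fold. Cxcl1 stood at 1.67 (1127 and 564 UMIs), Cxcl16 at 1.36 (1377 and 851), Cxcl2 at 0.918 (26833 and 24492) and Cxcl10 at 0.852 (1796 and 1765).

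**Figure D2:**
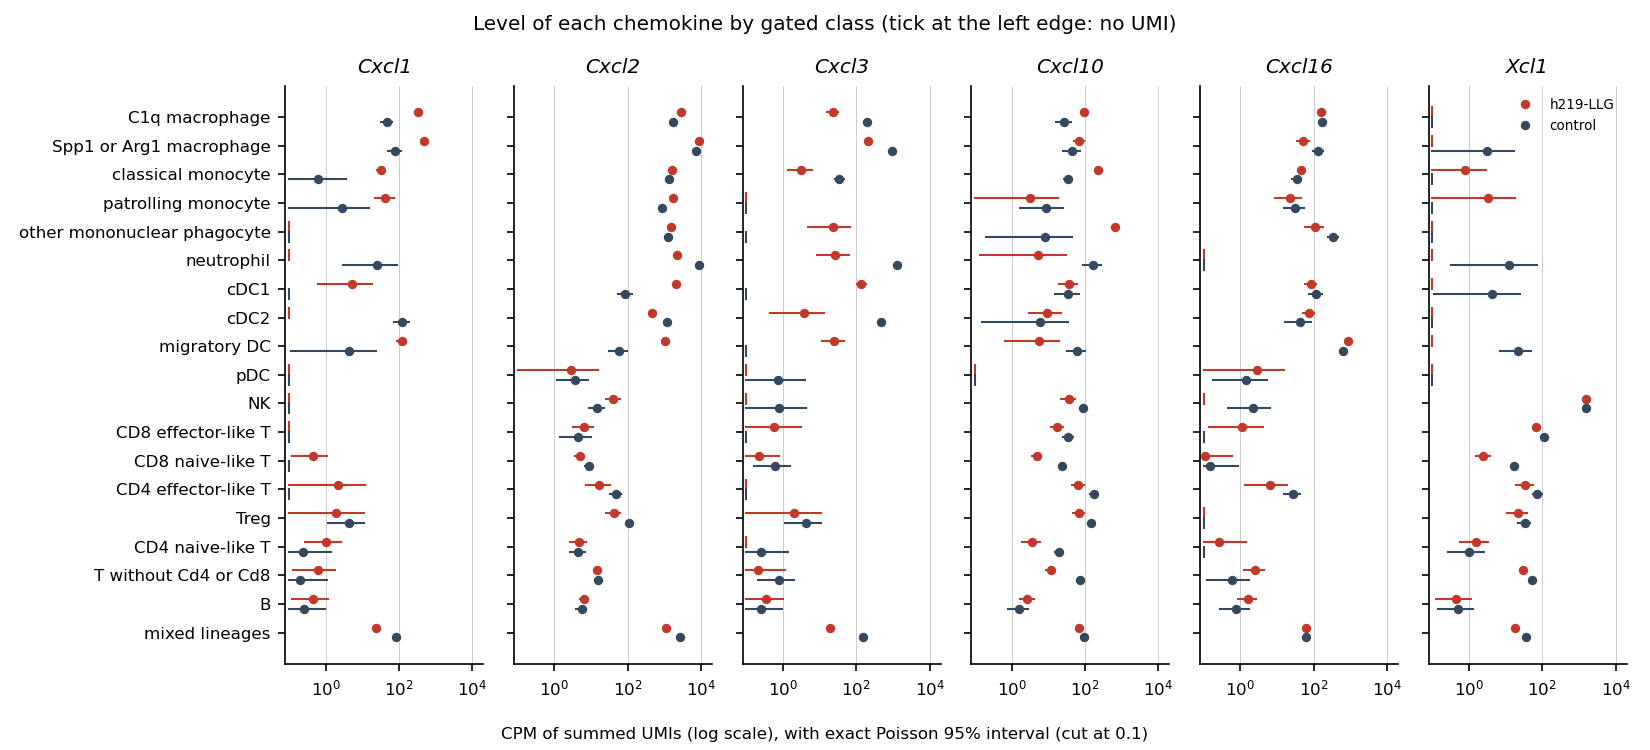
CPM of 6 chemokines (x axis, log scale) in 19 marker-gated classes, as points with exact Poisson 95% intervals for the h219-LLG and control libraries. Xcl1 peaks in NK cells at 1551 and 1568 CPM, and Cxcl16 in migratory dendritic cells at 878 and 617 CPM.

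Cxcl2, the neutrophil attractant with the most UMIs of the 7, was read from phagocytes of every kind. Among mononuclear phagocytes its level was highest in Spp1 or Arg1 macrophage-like cells, at 8662 CPM with h219-LLG (4914 UMIs, 56 cells) and 7155 CPM in control (2350 UMIs, 32 cells). C1q macrophage-like cells followed at 2930 and 1783 CPM, classical monocyte-like cells at 1658 and 1383, and patrolling monocyte-like cells at 1736 and 889. Over all phagocytes, 243 of 553 (43.9%) and 142 of 326 (43.6%) cells had a Cxcl2 UMI, and the positive cells had a median of 15 and 8 UMIs. B cell-gated cells, which should lack the gene, had one in 2.30% (median depth 3516.5 UMIs) and 2.23% (4260 UMIs) of cells. The phagocyte level was 2832 CPM with h219-LLG and 2026 CPM in control, a ratio of 1.40 (1.36 to 1.44), with ratios from 1.20 to 1.95 in the 4 named phagocyte classes and 1.25 in the phagocytes with no subset call, 27 and 24 cells whose ratio ran from 0.228 to 29.6 over the alternatives. The first 50% of the UMIs sat in 22 and 9 cells.

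Other classes differed more in Cxcl2, on few cells. Neutrophil-like cells had 427 UMIs in 49 cells with h219-LLG and 699 UMIs in 22 cells in control, a ratio of 0.260 (0.230 to 0.293). Their control level of 8805 CPM was the highest Cxcl2 level of any control class in the plot of levels, and 371 of the control UMIs came from 1 cell. Migratory dendritic-like cells had 381 and 13 UMIs, a ratio of 18.5 (10.7 to 35.2), and 294 of the 381 came from 1 of 35 cells. Treg-like cells had 21 and 102 UMIs, a ratio of 0.381 (0.226 to 0.614). In cDC1-like cells, 716 of 821 h219-LLG UMIs were in 1 of 24 cells, and the control cells had 20 UMIs. Over 2-fold differences in these directions were found for 8.14% of genes tested in neutrophil-like cells (688 genes, lower), 3.01% in migratory dendritic-like cells (higher) and 2.96% in Treg-like cells (lower).

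The direction of Cxcl2 turned in the cells with markers of several lineages, whose make-up also differed between the libraries. They had 10384 UMIs at 1151 CPM with h219-LLG and 15430 UMIs at 2669 CPM in control, a ratio of 0.431 (0.421 to 0.442). In the same cells all 5 melanocyte markers were over 2-fold lower with h219-LLG (median log2 ratio -2.90), from Pmel at 0.216 to Tyr at 0.0470, where 2.4% of genes were. With cells holding a melanocyte marker UMI left out, which kept 465 and 244 cells and was chosen after seeing the data, the Cxcl2 ratio was 0.404. Most of these UMIs were in cells with phagocyte and T cell markers, 9577 in 271 cells and 13931 in 178 cells. When these cells were returned to the lineage with more marker UMIs, the phagocyte ratio was 0.702 in place of 1.40. Whether Cxcl2 was higher or lower in phagocytes of the h219-LLG library therefore depended on how these cells were treated.

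Cxcl3, a further neutrophil attractant, was over 2-fold lower with h219-LLG in each class that was compared. Phagocytes had 163 UMIs at 32.8 CPM with h219-LLG and 511 UMIs at 166 CPM in control, a ratio of 0.198 (0.165 to 0.236). The ratio was 0.213 in Spp1 or Arg1 macrophage-like cells (118 and 320 UMIs), 0.119 in C1q macrophage-like cells (34 and 136) and 0.0913 in classical monocyte-like cells (8 and 55). Neutrophil-like cells had 5 and 105 UMIs, a ratio of 0.0202 (0.00644 to 0.0488). The cells with markers of several lineages had 169 and 911, a ratio of 0.119. Among genes tested, 0.638% were over 2-fold lower in all phagocytes, 3.68% in Spp1 or Arg1 macrophage-like cells, 1.28% in C1q macrophage-like cells, 1.05% in classical monocyte-like cells and 2.4% in the cells with markers of several lineages. Few cells carried the gene: 21 of 553 (3.80%) phagocytes with h219-LLG and 24 of 326 (7.36%) in control had a UMI. In each library 3 cells held 50% of the phagocyte UMIs. Single control cells held 78 of the 136 UMIs in C1q macrophage-like cells and 113 of the 320 in Spp1 or Arg1 macrophage-like cells. Another held 435 of the 911 in the cells with markers of several lineages. Over the alternatives the ratios of these 3 classes stayed at or under 0.290, 0.332 and 0.184. Cxcl2 and Cxcl3 transcripts shared 184 words of 25 bases, out of 2109 and 3516, so reads from these stretches are uncertain, and no other pair of members shared such a word. The dendritic classes were too small to compare: cDC1-like cells had 53 h219-LLG UMIs, 52 of them in 1 cell, and 0 in control, and cDC2-like cells had 2 and 80, the 80 in 1 cell.

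Cxcl1 was read from a small number of cells. With h219-LLG, phagocytes held 853 UMIs at 172 CPM in 37 of 553 cells (6.69%), and in control 59 UMIs at 19.2 CPM in 9 of 326 cells (2.76%). The ratio was 8.96 (6.88 to 11.9), while 2.96% of 8151 genes were over 2-fold higher in phagocytes. It was 7.26 in C1q macrophage-like cells (487 and 32 UMIs) and 6.32 in Spp1 or Arg1 macrophage-like cells (273 and 25 UMIs), where 7.07% and 2.78% of genes were over 2-fold higher. Classical monocyte-like cells had 80 UMIs against 1, a ratio of 50.2 (8.76 to 2008), with 2.58% of genes over 2-fold higher. Of the 80, 43 were in 1 cell, and with each cell thinned to 1000 UMIs 2 of 261 and 1 of 127 had a UMI. In Spp1 or Arg1 macrophage-like cells 1 cell held 117 of the 273 UMIs and 1 held 20 of the 25. Over the alternatives the lowest ratios were 1.55 in C1q macrophage-like, 1.13 in Spp1 or Arg1 macrophage-like and 1.90 in classical monocyte-like cells. These 2-fold calls were therefore not stable. The UMIs were concentrated, since 5 cells held 50% of them with h219-LLG and 2 cells in control. B cell-gated cells had 4 and 2 Cxcl1 UMIs.

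The cells with markers of several lineages went the other way for Cxcl1, with 210 UMIs at 23.3 CPM with h219-LLG and 472 UMIs at 81.6 CPM in control, a ratio of 0.285 (0.241 to 0.336). A single control cell had 182 of the 472, and without the top cell of each library the ratio was 0.353. The melanocyte markers, 5 of 5 over 2-fold lower, moved the same way, and without the cells holding one of their UMIs the Cxcl1 ratio was 0.241. Returned to their leading lineage, they brought the phagocyte ratio from 8.96 to 1.25. The call of a higher Cxcl1 level in phagocytes was thus lost with these cells included. In the cells with markers of several lineages 2.13% of genes were over 2-fold higher, and Cxcl9 was the member among them (ratio 2.29, 68 and 19 UMIs, 59 of the 68 in 1 cell). Without the top cell of each library its ratio was 0.825, on 9 and 7 UMIs.

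**Figure D3:**
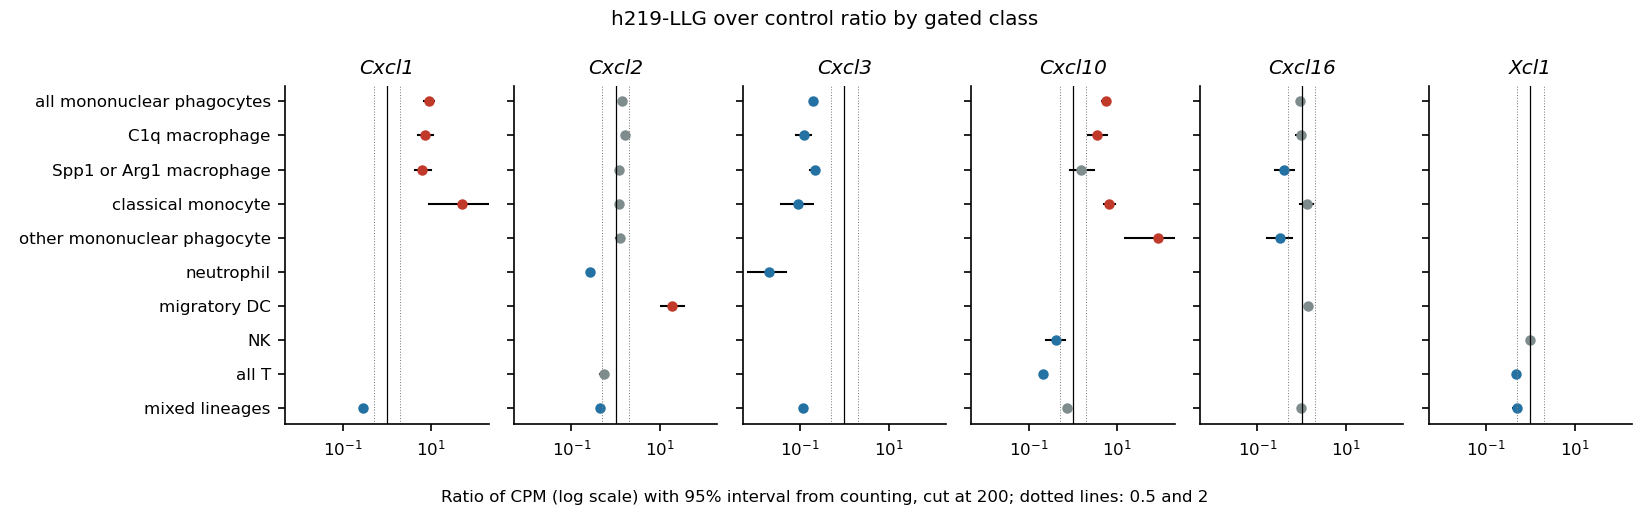
Ratio of CPM, h219-LLG over control (x axis, log scale), for 6 chemokines by gated class, with 95% counting intervals. Red points are over 2-fold higher, blue points over 2-fold lower, grey points within 2-fold. Cxcl10 lies at 5.62 in phagocytes and at 0.214 in T cells, and Cxcl1 and Cxcl2 lie on opposite sides of 1 in phagocytes and in cells with markers of several lineages.

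The 3 ELR chemokines shared their cells. Of the phagocytes with a Cxcl1 UMI, 36 of 37 with h219-LLG and 9 of 9 in control also had Cxcl2. Of those with Cxcl3, 20 of 21 and 22 of 24 also had Cxcl2. Cxcl1 and Cxcl3 met in 9 and 3 cells. The Cxcl1-positive cells were deeper than the class (median 12985 against 8860 UMIs with h219-LLG), which raises the chance of reading any further gene. Saa3, an acute-phase protein of macrophages, was in 10 of the 37 h219-LLG cells with Cxcl1, which held 48.8% of the Cxcl1 UMIs, and in 0 of the 9 control cells. Saa3 was in 6.33% and 3.07% of all phagocytes, so the 9 control cells were too few to compare. Il1b, a product of activated myeloid cells, was in 145 of 243 (59.7%) and 90 of 142 (63.4%) Cxcl2-positive phagocytes. Among all phagocytes Il1b was in 45.6% and 44.8%. The Cxcl2-positive cells were also deeper, with medians of 10273 and 12169.5 UMIs against 8860 and 9558.

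Cxcl10 showed opposite ratios in mononuclear phagocytes and in T and NK-like cells. Neutrophil-like cells had 1 and 13 Cxcl10 UMIs with h219-LLG and in control, migratory dendritic-like cells 2 and 14, and B cell-gated cells 24 and 12. Patrolling monocyte-like cells, which are among the phagocytes, had 1 and 3. These totals were below the 50 UMIs needed for a ratio. Phagocytes had 843 UMIs at 170 CPM in 65 of 553 cells (11.8%) with h219-LLG and 93 UMIs at 30.2 CPM in 17 of 326 cells (5.21%) in control, a ratio of 5.62 (4.53 to 7.03). Classical monocyte-like cells held most of the UMIs, at a ratio of 6.56 (4.97 to 8.82; 575 and 55 UMIs), and 182 of the 575 were in 1 cell. Phagocytes with no subset call had 88 and 1 UMIs, a ratio of 84.5 (14.8 to 3375) where 3.86% of 699 genes were over 2-fold higher, but 84 of the 88 were in 1 cell, and without the cells over 3 times the median depth the ratio was 1.01 on 2 and 1 UMIs. C1q macrophage-like cells had 139 and 19 UMIs, a ratio of 3.49 (2.15 to 5.97), and 16 of the 19 were in 1 cell. Spp1 or Arg1 macrophage-like cells had 40 and 15, a ratio of 1.54 (0.834 to 3.01). Over all phagocytes, 4 cells held 50% of the Cxcl10 UMIs with h219-LLG and 2 cells in control. Of the h219-LLG phagocyte UMIs of Cxcl10, 71.2% were in cells with Ifit1, an interferon-induced gene, against 4.30% in control, and Ifit1 was in 9.04% and 4.60% of phagocytes. Counted by cells, Ifit1 was in 19 of the 65 (29.2%) and 3 of the 17 (17.6%) Cxcl10-positive phagocytes. The UMI shares therefore rest on few cells.

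T cells had 211 Cxcl10 UMIs at 10.3 CPM in 106 of 3301 cells (3.21%) with h219-LLG and 890 UMIs at 48.5 CPM in 172 of 2530 cells (6.80%) in control, a ratio of 0.214 (0.183 to 0.248). The ratio was 0.163 in T cells with no Cd4 or Cd8 call (56 and 369 UMIs), 0.187 in CD4 naive-like (14 and 78), 0.204 in CD8 naive-like (44 and 154), 0.387 in CD4 effector-like (31 and 114) and 0.480 in Treg-like cells (35 and 135). CD8 effector-like cells were within 2-fold at 0.514 (31 and 40). NK-like cells had 22 and 114 UMIs, a ratio of 0.414 (0.250 to 0.658). In these, 14 of 117 (12.0%) and 23 of 215 (10.7%) cells had a UMI. Of the 114 NK control UMIs, 81 were in 5 cells. Among CD4 effector-like cells 11 of 79 (13.9%) and 11 of 103 (10.7%) had a UMI, and 107 of their 114 control UMIs were in 4 cells. Over the alternatives the ratio reached 0.534 in NK-like, 0.513 in CD4 effector-like and 0.536 in Treg-like cells, so these 2-fold calls were not stable. The shares of genes over 2-fold lower were 1.56% in all T cells, 1.01% in those with no Cd4 or Cd8 call, 1.41% in CD4 naive-like, 1.33% in CD8 naive-like, 2.93% in CD4 effector-like and 1.65% in NK-like cells. High cells made up most of the difference, as 47 control T cells with at least 5 UMIs held 681 of the 890, against 9 cells and 56 UMIs with h219-LLG. T cells with Ifit1 held 20.9% of the T cell UMIs of Cxcl10 with h219-LLG and 52.2% in control, while Ifit1 itself was in 8.63% and 21.7% of T cells. Counted by cells, Ifit1 was in 19 of the 106 (17.9%) and 54 of the 172 (31.4%) Cxcl10-positive T cells. B cell-gated cells had a Cxcl10 UMI in 0.433% and 0.411% of cells.

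After each cell was thinned to 1000 UMIs, the share of phagocytes with Cxcl10 was 5.73% with h219-LLG and 1.27% in control, and the share of T cells 0.879% and 2.69%. The ratios kept their opposite directions at equal depth, on 31 and 4 phagocytes and 29 and 68 T cells. The cells with markers of several lineages had 619 and 556 UMIs, a ratio of 0.713 (0.635 to 0.801). Included in their leading lineage, they brought the phagocyte ratio to 1.51 and that of T cells to 0.272. In C1q macrophage-like cells the ratio then turned to 0.491. Cxcl9, the other interferon-induced member, had 22 and 12 UMIs in phagocytes, and 52 of its 143 h219-LLG UMIs were in 1 cDC1-like cell and 59 in 1 cell with markers of several lineages, so the gated classes had too few Cxcl9 UMIs or cells to compare.

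Heat shock genes, read as signs of handling, differed between the libraries in the same cells. Hspa1a stood at 4.61 CPM with h219-LLG and 44.4 CPM in control T cells, a ratio of 0.104, and Hspa1b at 0.173. In phagocytes Hspa1a stood at 0.250 and Hspa1b at 0.303, while Fos was at 1.60 and Jun at 0.775. Of the 10 stress genes, 2 in T cells and 4 in phagocytes had a ratio over 1, with a median log2 ratio of -0.45 and -0.32, against 0.05 and 0.06 over all genes tested. The phagocyte classes differed in this. C1q macrophage-like cells had 9 of 10 over 1 (median 0.52) and Spp1 or Arg1 macrophage-like cells 7 of 10 (median 0.31). Classical monocyte-like cells had 4 of 10 (median -0.34). The Cxcl1 ratios of these classes, 7.26, 6.32 and 50.2, fell to 1.55, 1.13 and 1.90 at the lowest over the alternatives. The part of the stress genes in the chemokine differences was not tested.

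Cxcl16, the membrane-anchored member, was within 2-fold between the libraries in migratory dendritic-like and C1q macrophage-like cells. Migratory dendritic-like cells had the highest level, 878 CPM with h219-LLG (317 UMIs, 35 of 35 cells) and 617 CPM in control (141 UMIs, 21 of 25 cells), a ratio of 1.42 (1.16 to 1.75). Thinned to 1000 UMIs, 20 of 35 and 8 of 24 cells had a UMI. Phagocytes with no subset call had 107 CPM with h219-LLG and 334 CPM in control, a ratio of 0.320 (0.161 to 0.598) on 14 and 42 UMIs in 5 of 27 and 8 of 24 cells, where 6.58% of genes were over 2-fold lower. C1q macrophage-like cells had 158 and 167 CPM, a ratio of 0.942 (0.750 to 1.19), and 48.2% and 45.9% of cells with a UMI. The cDC1-like cells had 83.9 and 113 CPM in 12 of 24 and 7 of 13 cells. Spp1 or Arg1 macrophage-like cells were lower with h219-LLG, at a ratio of 0.404 (0.245 to 0.659) on 30 and 43 UMIs, but the ratio was 0.713 as a mean over cells, 0.667 with the cells of several lineages included and 0.873 after thinning (3 and 2 UMIs), so the 2-fold call was lost. Over all phagocytes the ratio was 0.913 (0.779 to 1.07). Unlike Cxcl1, the UMIs were spread over many cells, since 22 and 18 phagocytes held 50% of them. T cells had 19 and 22 UMIs in all. Adam10, the sheddase, had a phagocyte ratio of 1.32 (524 and 246 UMIs) and Adam17 of 1.06 (476 and 279).

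Xcl1 in NK-like cells, its main source, differed between the libraries by less than its counting interval. They had 946 UMIs at 1551 CPM with h219-LLG and 2053 UMIs at 1568 CPM in control, a ratio of 0.989 (0.915 to 1.07). A Xcl1 UMI was found in 72 of 117 (61.5%) and 155 of 215 (72.1%) cells, and in 41.9% and 44.6% after thinning to 1000 UMIs. B cell-gated cells had one in 0.173% and 0.235% of cells. The lower Xcl1 total of the h219-LLG library went with fewer NK-like cells, 1.57% of kept cells against 3.83% in control. Ifng, an NK and T cell cytokine, was in 42 of the 72 (58.3%) and 68 of the 155 (43.9%) Xcl1-positive NK-like cells. Among all NK-like cells it was in 51.3% and 43.7%. The level of Ifng in NK-like cells was 325 and 199 CPM.

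T cells had 317 and 587 Xcl1 UMIs at 15.5 and 32.0 CPM, a ratio of 0.486 (0.423 to 0.559), with a UMI in 3.15% and 3.95% of cells. Effector-like CD8 cells had the highest T cell level, 67.2 and 109 CPM, a ratio of 0.615 (117 and 126 UMIs), while 20.3% and 14.2% of cells had a UMI. As 64 of the 126 control UMIs were in 1 cell, the ratio was 0.997 without the top cell of each library, 1.13 as a mean over cells, 1.12 after thinning (11 and 6 UMIs) and 1.56 without cells over 3 times the median depth, so its direction was not stable. In CD8 naive-like cells the ratio of 0.140 (22 and 112 UMIs) rested on 1 control cell with 95 UMIs, and without the top cell of each library it was 0.794. Effector-like CD4 cells had 16 and 49 UMIs in 6 of 79 and 7 of 103 cells, a ratio of 0.464. In each library 1 cell held much of this, 8 of the 16 and 24 of the 49. Over the alternatives the ratio ran from 0.163 to 0.597. Phagocytes had 3 and 1 Xcl1 UMIs.

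**Figure D4:**
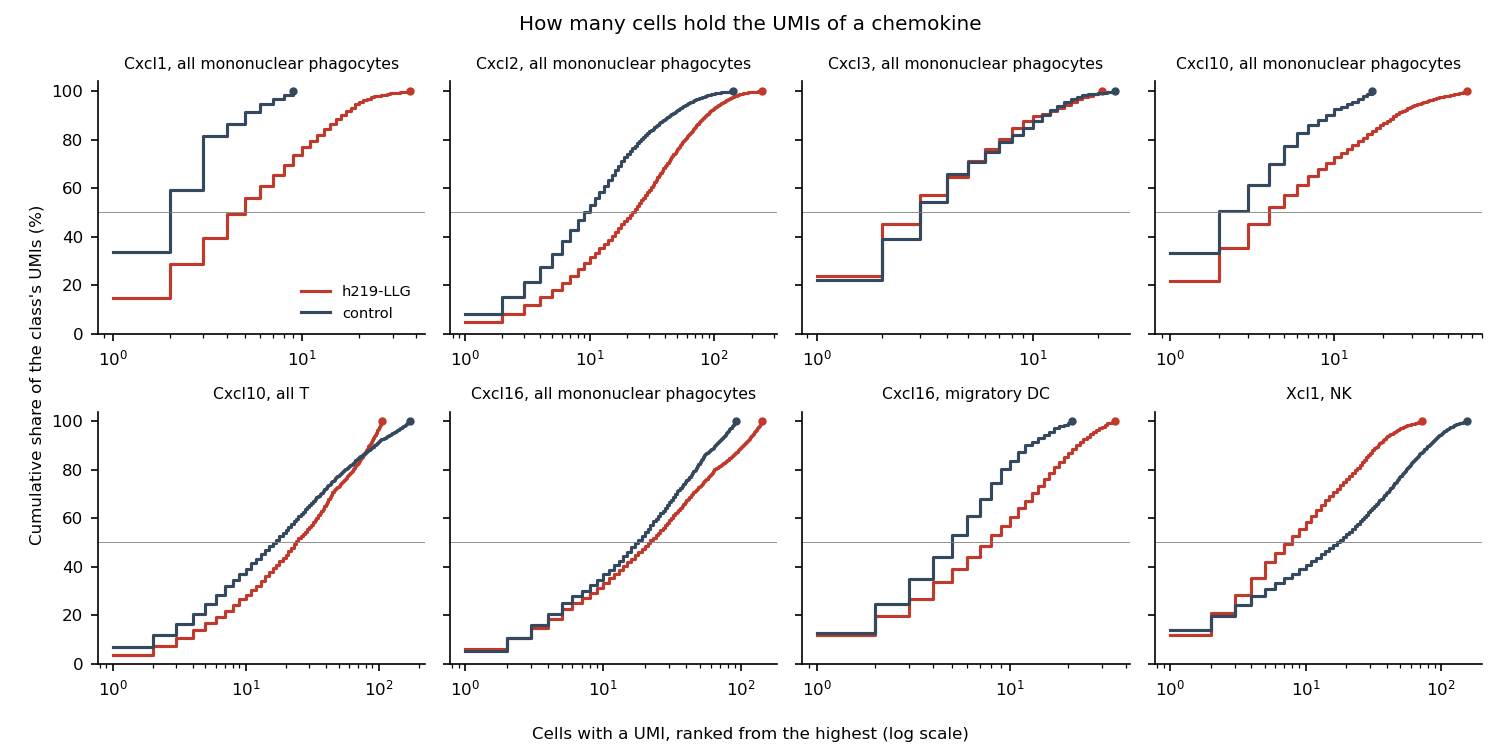
Cumulative share of a class's UMIs (%, y axis) against the number of cells with a UMI, ranked from the highest (x axis, log scale), for the h219-LLG and control libraries. For Cxcl1 in phagocytes 5 and 2 cells hold 50%, for Cxcl16 22 and 18, and for Xcl1 in NK cells 8 and 17.

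Cxcr2, the receptor of the ELR chemokines, was in 47 of 49 and 20 of 22 neutrophil-like cells, at 1109 and 1033 CPM, a ratio of 1.07 (0.827 to 1.40). Cxcr3 had 360 and 265 UMIs in T cells (17.7 and 14.4 CPM, ratio 1.22) and was highest in effector-like CD4 (112 and 69.4 CPM) and CD8 cells (80.4 and 60.7 CPM). Cxcr6, the Cxcl16 receptor, had 541 and 260 UMIs in T cells, a ratio of 1.87 (1.61 to 2.18). Xcr1 was in 15 of 24 and 6 of 13 cDC1-like cells, at 184 and 118 CPM, in a class too small to compare. Cxcr4 was lower with h219-LLG in T cells (0.614), NK-like cells (0.362) and phagocytes (0.378). Cxcr5 in T cells had 69 and 106 UMIs, a ratio of 0.586. Of 8 receptors, 4 had 50 UMIs in T cells, with 0 past 2-fold. In NK-like cells 1 of 2 and in phagocytes 1 of 1 was over 2-fold lower, Cxcr4 in both, where 1.65% and 0.638% of all genes were.

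Among the other ligands, Pf4, the platelet factor also made by macrophages, had 2227 and 1943 UMIs in phagocytes, a ratio of 0.710. Ppbp had 4 and 180 phagocyte UMIs, a ratio of 0.0138, and 173 of the control UMIs were in 3 Spp1 or Arg1 macrophage-like cells. Cxcl13 had 63 UMIs in 4 h219-LLG phagocytes and 0 in 326 control phagocytes. Cxcl5, Cxcl15 and Cxcl17 had 0 UMIs in phagocytes of either library. Of the 3 ligands with 50 UMIs, 1 was over 2-fold higher and 1 over 2-fold lower, where 2.96% and 0.638% of all phagocyte genes were.

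The genes upstream of the chemokines that are named here were within 2-fold in T cells and phagocytes. Of the interferon gamma list, Jak1 stood at 0.867 and Ifng at 0.779 in T cells, and the receptor chains Ifngr1 at 0.571 and Ifngr2 at 0.544. In phagocytes Ifngr2 stood at 1.22 and Irf1 at 1.11, and the kinases Jak1 at 0.886 and Jak2 at 0.872. For the NF-kappaB list, 5 of 9 phagocyte genes were over 1 (median log2 ratio 0.07), led by Il1a at 1.84 and Nfkbiz at 1.43, with Rela at 0.806 and Nfkb2 at 0.763 lowest. In T cells 1 of 7 was over 1 (median -0.41), with Nfkbiz at 1.02 and Tnfaip3 at 0.877 highest and Nfkb1 at 0.681 and Nfkbia at 0.621 lowest. The lists were chosen with earlier results known.

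Across 26 profiles (13 classes in both libraries), the gene most like Xcl1 was Klrc2, an NK receptor (Pearson r = 0.961 of log2 CPM), followed by Tbx21 and Fhl2 and by Ifng at 0.925. Cxcl2 was most like Slc16a3, a lactate transporter (0.955), Emilin2, Plin2 and Il1rn. Cxcl3 was most like Pdpn (0.920), Il1a, Plau and Mrc1, and Cxcl1 most like Gdf3 (0.928), Lpl, F7 and Ms4a7. Cxcl16 was most like Clec4b1 (0.942), Anxa3, Rab5c and Clec4n. Cxcl10 had weaker neighbours in Slc25a3 (0.855), Dok2, S100a10 and Isg15, and Cxcl9, with 24 UMIs in these classes, Lyz1 (0.887), Nxpe5, Ccl12 and Plau. Among members, r was 0.864 for Cxcl1 and Cxcl2, 0.763 for Cxcl2 and Cxcl3, and -0.424 for Cxcl1 and Xcl1. The profiles share libraries and depth, so these values are descriptions.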

How the data were processed

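The authors deposited raw UMI counts per gene and barcode for each library, made with Cell Ranger 5.0.0 on the mm10 build, per the submitters' processing notes. Barcodes had at least 500 UMIs, 200 genes and under 10% mitochondrial UMIs. Marker gates (at least 3 UMIs of at least 2 markers for a lineage) replaced clustering. The UMI minimums were set after seeing the data, and 373 (5.02%) and 236 (4.21%) cells changed class when they moved by 1 UMI. No doublet caller was run. Cells passing gates of several lineages were left out of the gated classes and kept in an alternative. The members, lists and comparisons were chosen with earlier results of these data known. Counts were summed per class and library and divided by the class total (CPM). A gene was compared at 50 UMIs over both libraries, in classes of at least 20 cells in each, and called past 2-fold. Interval code was tested on simulated data. All members are named, each with the 4 genes of highest Pearson r (log2 of CPM + 1, at least 100 UMIs, at least 30 cells per class, gate markers left out). From the lists, the 2 highest and 2 lowest ratios are named. Cxcl11 was not analysed here. 1 gene of the interferon gamma list, and the counts that include it, are not reported here. The TMM factors came from edgeR 4.0.16. Alternatives changed the filter, gates, scaling, thinning and single top cells.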

Additional observations from a re-analysis of the deposited data

Results flagged for a closer look

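Cxcl10 was flagged because its ratio differed in direction between cell groups: 5.62 in phagocytes, 0.214 in T cells and 0.414 in NK-like cells. The counting intervals do not overlap, but with 1 library per group the difference between the groups was not tested. The cells with markers of several lineages were flagged because they lie outside the gated comparisons and carried chemokine levels above the B cell-gated cells. Cxcl1 stood at 23.3 CPM with h219-LLG and 81.6 CPM in control, Cxcl2 at 1151 and 2669 CPM, and Cxcl3 at 18.7 and 158 CPM.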

How the results depend on the processing

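No paired analysis was possible because each group is 1 library, and no replicate could be left out. Of 120 values over the 10 main ratios and 12 alternatives, 99 stayed within the counting interval of the reported ratio, 21 lay outside it, and none reversed a ratio past 2-fold. Of 420 values over 36 other ratios, 337 stayed, 82 moved and 1 reversed: Cxcl10 in C1q macrophage-like cells fell to 0.491 with the mixed-lineage cells kept. That alternative also gave phagocyte ratios of 1.25 for Cxcl1, 0.702 for Cxcl2, 0.131 for Cxcl3 and 1.51 for Cxcl10, and 0.272 for Cxcl10 in T cells. With it, phagocytes held 86.8% and 85.2% of the Cxcl2 UMIs. It adds cells, and what those cells are was not tested. Thinning to 1000 UMIs gave phagocyte ratios of 4.73 for Cxcl1, 1.49 for Cxcl2, 10.9 for Cxcl10 (75 and 4 UMIs) and 0.682 for Cxcl16, 1.04 for Cxcl16 in migratory dendritic-like cells, and for Xcl1 1.09 in NK-like and 0.402 in T cells. The mean over cells gave 1.52 for Cxcl2, 0.240 for Cxcl3 and 0.717 for Cxcl16 in phagocytes. Phagocyte Cxcl2 stood at 1.48 with the stricter filter, 1.33 with TMM and 1.46 without the top cell of each library. T cell Cxcl10 stood at 0.249 with the stricter gate and 0.163 with the B cell-gated level subtracted, and T cell Xcl1 at 0.590 without cells over 3 times the median depth. The cause of these shifts was not tested. The share of genes past 2-fold depended on the UMI minimum: in phagocytes 3.59% at 50 UMIs, 6.37% at 20 and 2.53% at 100, in T cells 3.41%, 5.59% and 2.25%, and in NK-like cells 2.65%, 6.54% and 1.59%. Of the alternatives chosen after seeing the data, leaving out the top cells turned Cxcl9, to 0.993 over all kept cells and 0.825 in the cells with markers of several lineages. Single cells limit Cxcl1, Cxcl3, Cxcl9 and, in phagocytes, Cxcl10.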
